A study of Arabidopsis thaliana with 6 samples.

Results

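Transcript levels of 10 WRKY genes of plant defence were read from paired-end RNA sequencing of Arabidopsis thaliana seedlings. The genes were picked by locus identifier: WRKY18 (AT4G31800), WRKY40 (AT1G80840), WRKY60 (AT2G25000), WRKY33 (AT2G38470), WRKY70 (AT3G56400), WRKY54 (AT2G40750), WRKY53 (AT4G23810), WRKY45 (AT3G01970), WRKY75 (AT5G13080) and WRKY11 (AT4G31550). They are 10 of the 27371 genes in the deposited table, and all 10 averaged 1 FPKM or more, the minimum for testing. All libraries came from whole seedlings aged 14 days of ahl13-1, the insertion line SALK_014014 in AHL13, a gene for an AT-hook protein that binds AT-rich DNA. The treated group (3 libraries) had been sprayed for 24 hours with Pst hrcC at an OD600 of 0.002, and the other group was control (3 libraries); the labels do not say what the controls received. The hrcC mutant of the leaf pathogen Pseudomonas syringae pv. tomato (Pst) cannot assemble a type III secretion system, so it shows microbial patterns to the plant without injecting effectors. No wild-type library is analysed here, so no value below is a difference between genotypes. The line is a single insertion allele.

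WRKY proteins are plant transcription factors that bind the W box, a short DNA element with the letters TTGACC or TTGACT. Many WRKY genes respond to microbial patterns within minutes to hours, carry W boxes in their own promoters and act on each other, so that activators and repressors of defence are made side by side. WRKY18, WRKY40 and WRKY60 form group IIa and bind each other; WRKY33 is activated by MAP kinases; WRKY70, WRKY54 and WRKY53 belong to group III and act in salicylic acid signalling and leaf ageing; WRKY45 and WRKY75 belong to group IIc; WRKY11 belongs to group IId.

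The group IIa genes carry clustered W boxes upstream. These stretches are shown because WRKY18 was the only member called higher, in the fit with treatment alone, and WRKY40 and WRKY60 carry similar clusters. That call was lost with the replicate number as a block. The stretches were chosen after the motif search, as those with boxes starting within 30 bases of each other, and each has 15 bases on either side. Letters were read from the RefSeq genome TAIR10.1, in the direction of the gene, and capitals mark the W boxes (AGTCAA and GGTCAA are the same boxes on the opposite strand).
WRKY18, chr4:15382026-15382077, plus strand: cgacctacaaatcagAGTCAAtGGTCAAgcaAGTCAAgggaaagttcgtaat
WRKY60, chr2:10629010-10629058, plus strand: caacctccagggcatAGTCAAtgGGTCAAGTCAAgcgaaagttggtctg
WRKY40, chr1:30382733-30382774, plus strand: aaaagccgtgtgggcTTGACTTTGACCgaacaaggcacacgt
In WRKY18 the 3 boxes began 736, 729 and 720 bases before the annotated gene start, all on the opposite strand. In WRKY60 they began 637, 629 and 624 bases before it, also on the opposite strand, and the last 2 share 1 base. WRKY40 had 2 abutting boxes on its own strand, 813 and 807 bases before its start.

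The promoter of WRKY33 is shown because it has 3 boxes in the 300 bases before the annotated start, closer than the group IIa clusters. WRKY33 was picked by name and not by a rule, so the share given below is only a description. The nearest single boxes were in WRKY75 and WRKY45, 11 and 15 bases before the start.
WRKY33, chr2:16107935-16108234, plus strand: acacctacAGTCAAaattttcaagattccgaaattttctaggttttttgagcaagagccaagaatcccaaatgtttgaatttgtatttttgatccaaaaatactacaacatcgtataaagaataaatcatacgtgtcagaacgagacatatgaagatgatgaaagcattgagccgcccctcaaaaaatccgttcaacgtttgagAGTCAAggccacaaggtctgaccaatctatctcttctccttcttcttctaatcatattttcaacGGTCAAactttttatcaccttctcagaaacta
Of 27443 nuclear protein-coding genes, 1.57% had at least 3 boxes in a window of that length. In the 1000 bases before the start, both strands searched, 9 of the 10 members held at least 1 box, against 67.3% of the 27443 genes. At least 3 boxes were found in 5 members (WRKY18, WRKY60, WRKY33, WRKY45 and WRKY11) and in 13.5% of all genes. Boxes starting within 30 bases of each other were found in WRKY18, WRKY40 and WRKY60, in 7 of 62 other WRKY genes (11.3%) and in 6.21% of all genes. WRKY70 had no match in its window. Part of the WRKY45 window lies in the neighbouring gene AT3G01980. WRKY18, WRKY60 and WRKY11 have 3 annotated starts each, and their positions and counts refer to the outermost. A match describes letters and does not show binding.

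**Figure D1:**
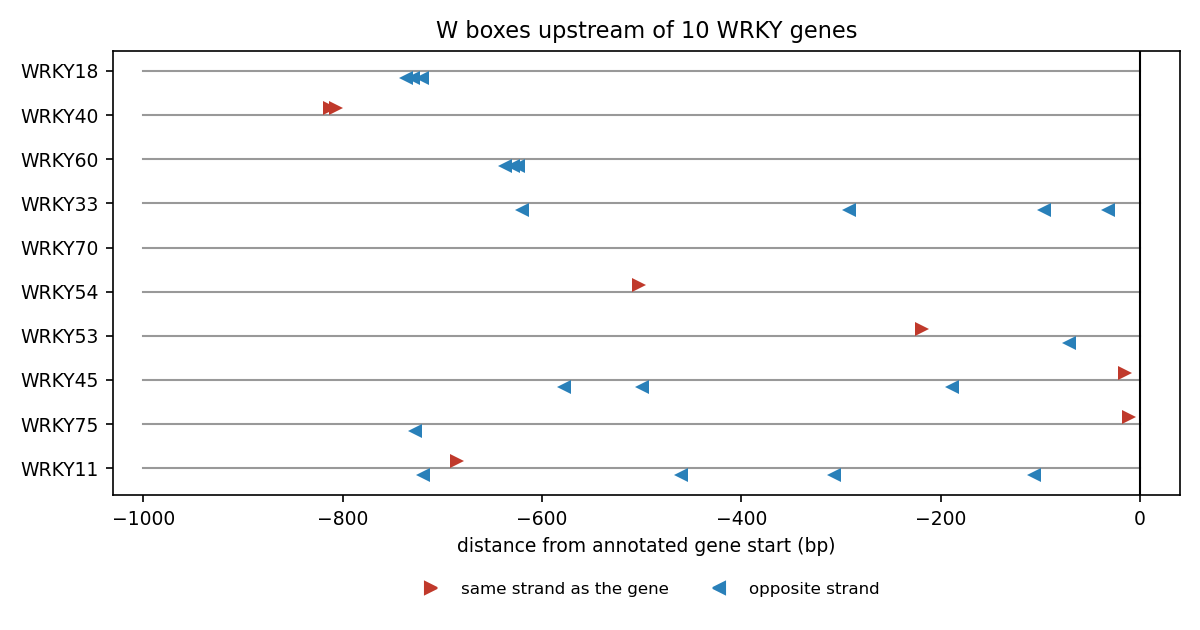
Positions of W boxes in the 1000 bp before the annotated start of each of the 10 WRKY genes, with distance in bp on the x axis and 1 gene per line; triangles give the strand. The 3 boxes of WRKY18 and of WRKY60 and the 2 of WRKY40 sit close together, while the 4 of WRKY33 are spread and 3 of them lie within 300 bp of the start.

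The libraries differed in ways that touch these genes. FPKM (fragments per kilobase of transcript, scaled by mapped fragments) holds no counts. Estimated from the step size among low genes, depth was 4.55, 3.80 and 0.814 times that of control replicate 1 in Pst hrcC replicates 1, 2 and 3, and 4.87 and 2.85 times in control replicates 2 and 3. These are rough estimates, since only 45.8% to 54.8% of the ratios behind them fell on whole steps (within 0.02 on the log2 scale). AHL13 (AT4G17950) was at 1.98, 2.43 and 2.08 FPKM after Pst hrcC and at 2.32, 2.17 and 2.47 FPKM in controls, and without a wild type this does not check the insertion. Leaf markers (8 of 8 tested) and root markers (17 of 19 tested) were both detected. The summed level of the 19 root markers ran from 82.1 to 112.8 FPKM after Pst hrcC and from 55.4 to 93.3 FPKM in controls, lowest in control replicate 3. The clock gene CCA1 was at 15.98, 0.166 and 0.205 FPKM after Pst hrcC and at 14.5, 0.233 and 0.162 FPKM in controls, so both replicate 1 libraries stood apart from the others. Results are therefore also given without the replicate 1 pair where it matters. In whole seedlings, more cells expressing a gene and more RNA per cell cannot be told apart.

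After Pst hrcC, WRKY18 was the only member called higher in the fit with treatment alone. With the replicate number as a block, 0 of the 10 passed (WRKY18 at a limma adjusted p of 0.0524), and 0.266% of all tested genes were called higher. Over all genes in the fit with treatment alone, limma (a linear model with moderated variance, on log2(FPKM + 1), Benjamini-Hochberg adjusted over 16923 tested genes, called under 0.05) found 1 of the 10 members higher, none lower and 9 that did not pass. Of all tested genes, 0.284% were called higher and 0.00591% lower. At an unadjusted p under 0.05, 5 members were higher (WRKY18, WRKY45, WRKY75, WRKY53 and WRKY40) and none lower, against 5.18% of all tested genes higher and 1.63% lower. The 3 treated values lay wholly above the 3 control values in 6 members (those 5 and WRKY33), and in 7.66% of all tested genes. Groups that do not overlap are higher in every same-numbered pair by construction. The 6 were thus higher in all 3 pairs (as were 21.2% of tested genes), which adds no further support. The log2 difference was above 0 in all 10 members and in 57.5% of tested genes. Its median over the members was 0.53, against 0.04 over all tested genes. In same-numbered pairs of libraries the member medians were 0.64, 0.51 and 0.42 for replicates 1, 2 and 3, where those of all tested genes were 0.07, 0.02 and 0.00. Root markers lay in the same direction, with 16 of 17 above 0 and a median of 0.34, and leaf markers in the other, with 6 of 8 below 0 and a median of -0.12; none of either list passed, and their part in the members' differences was not tested.

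**Figure D2:**
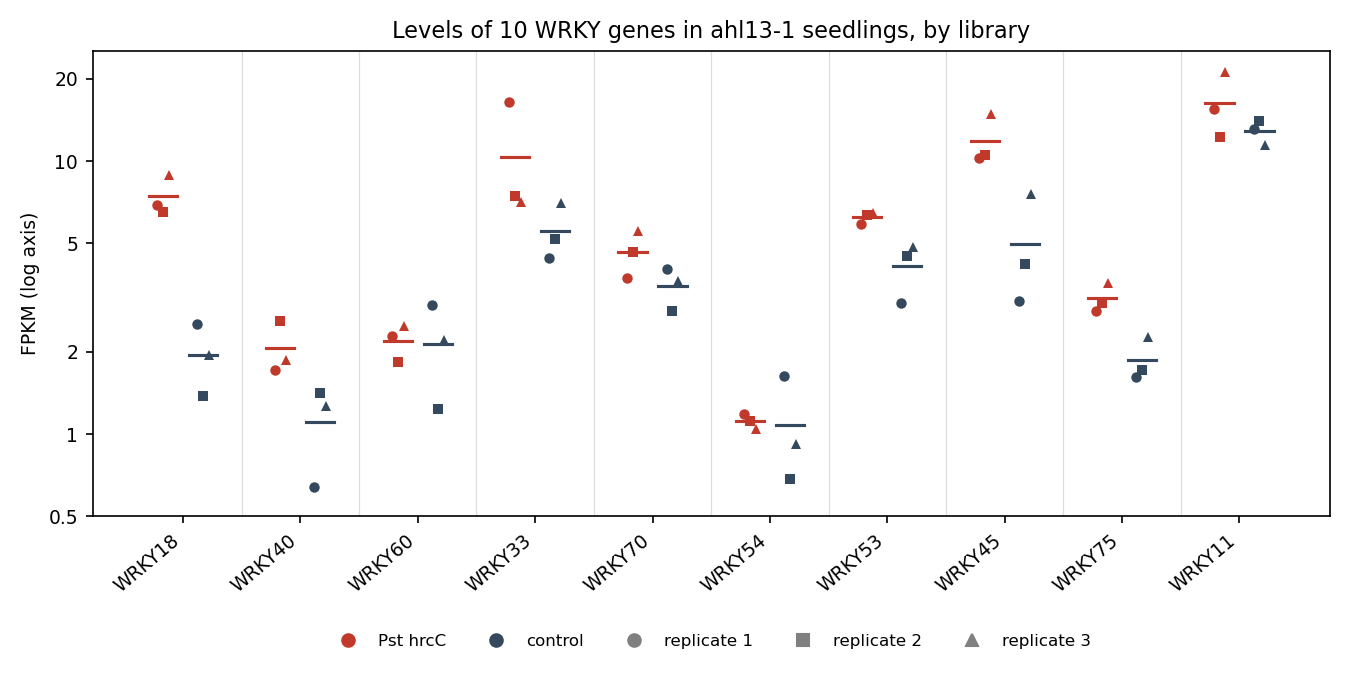
FPKM of each WRKY gene in each library, on a log axis, with Pst hrcC libraries in red on the left and controls in dark blue on the right of each gene; symbols give the replicate number and bars the group mean (n = 3). WRKY18 has its 3 treated values between 6.52 and 8.86 FPKM and its controls between 1.38 and 2.53 FPKM, whereas WRKY60 and WRKY54 overlap fully.

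In group IIa, WRKY18 stood at 6.89, 6.52 and 8.86 FPKM after Pst hrcC, against 2.53, 1.38 and 1.95 FPKM in controls. Every treated library was above every control, and the treated libraries were also further from the controls than from each other. The ratio of the means was 3.80, and the log2 difference was 1.52 ± 0.19 (SE, limma adjusted p = 0.0490, with a 95% interval from 1.06 to 1.98). The call, lost under the block, was kept without Pst hrcC replicate 1 (limma adjusted p = 0.0498) and without the replicate 1 pair (limma adjusted p = 0.0462, where 1.02% of all tested genes were called higher). Leaving out Pst hrcC replicate 2 or 3 ended the call, with limma adjusted p-values of 0.204 and 0.175. Leaving out control replicate 1, 2 or 3 ended it too, with limma adjusted p-values of 0.0694, 0.234 and 0.244. Its log2 difference was between 1.37 and 1.66 when any 1 library was left out.

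WRKY40, which acts with WRKY18 and in part in its place as a repressor of defence genes, was lower than WRKY18 in every treated library. It was at 1.72, 2.595 and 1.87 FPKM after Pst hrcC and at 0.642, 1.41 and 1.27 FPKM in controls. The groups did not overlap, and the log2 difference of 0.55 ± 0.20 did not pass (SE, limma adjusted p = 0.632, with a 95% interval from 0.07 to 1.03). WRKY60, the third of the group, was at 2.28, 1.84 and 2.48 FPKM after Pst hrcC and at 2.98, 1.24 and 2.21 FPKM in controls. Its groups overlapped fully, with the highest value of all in control replicate 1, and the log2 difference was 0.06 ± 0.23 (SE, limma adjusted p = 1.00, with a 95% interval from -0.49 to 0.61).

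Ratios within group IIa were compared too, and none passed. WRKY18 was 3.02, 3.54 and 3.58 times as high as WRKY60 after Pst hrcC, against 0.851, 1.12 and 0.879 times in controls. On the log2 scale this ratio of FPKM + 1 was 1.39 ± 0.12 after Pst hrcC and -0.07 ± 0.14 in controls (SD, n = 3 each), a difference of 1.46 with an exact permutation p of 0.1, the smallest that 3 against 3 can give (two-sided, 0.3 adjusted over the 6 ratios compared). The ratio of WRKY18 to WRKY40 was 4.001, 2.51 and 4.73 after Pst hrcC and 3.95, 0.976 and 1.54 in controls. These ratios overlapped through control replicate 1, where WRKY40 was at its lowest level and WRKY18 at its highest control level (difference 0.97 on the log2 scale, two-sided exact permutation p = 0.2, adjusted 0.4).

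**Figure D3:**
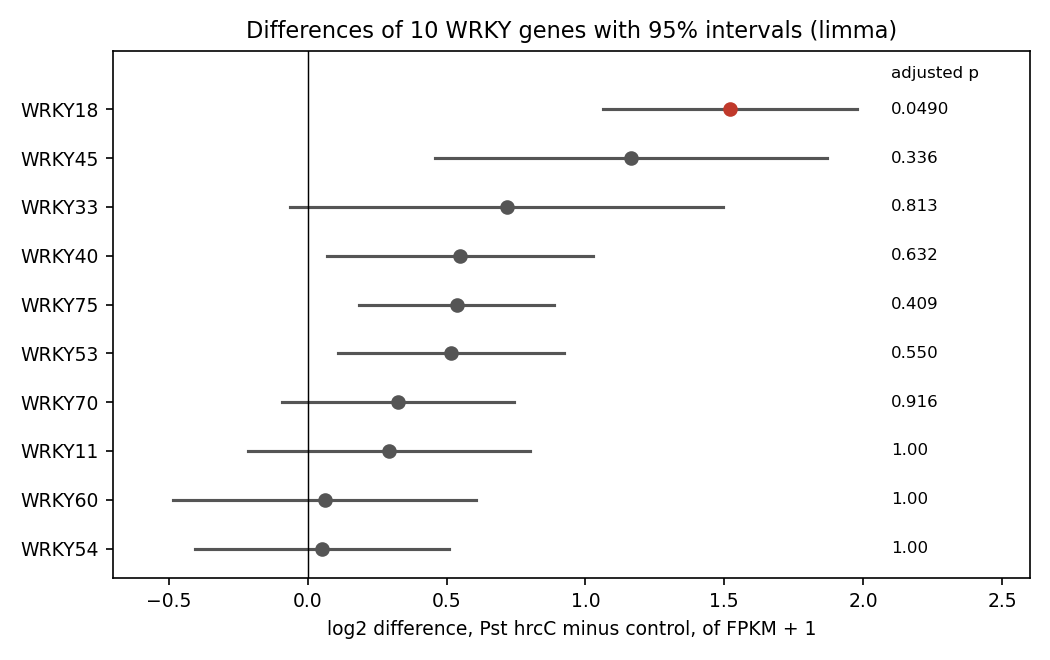
Log2 difference of FPKM + 1, Pst hrcC minus control, for each WRKY gene, with limma's 95% interval as a line and the adjusted p at the right; red marks an adjusted p under 0.05. WRKY18 stands highest at 1.52, WRKY45 follows at 1.16, and the intervals of WRKY33, WRKY70, WRKY11, WRKY60 and WRKY54 include 0.

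WRKY33, the factor phosphorylated by MPK3 and MPK6 that drives camalexin synthesis and resistance to necrotrophic fungi, was high in a single treated library. It was at 16.4, 7.47 and 7.06 FPKM after Pst hrcC and at 4.42, 5.17 and 7.02 FPKM in controls. Only pair 1 showed a large difference (1.69 on the log2 scale, against 0.46 and 0.01 in pairs 2 and 3), and treated replicate 3 lay only just above control replicate 3. The log2 difference of 0.72 ± 0.33 did not pass (SE, limma adjusted p = 0.813). Without Pst hrcC replicate 1 it was 0.36, and without the replicate 1 pair, in which the clock genes stood apart, it was 0.23. Whether the clock state of that pair bears on WRKY33 was not tested. The RefSeq annotation places a long noncoding RNA gene (AT2G08965, 272 bp) on the opposite strand within WRKY33. The strand setting of the authors' libraries is not given in the sources used here, so reads of the 2 genes may not have been told apart. The same holds for the 26 bp that WRKY33 shares with AT2G38480 and the 51 bp that WRKY40 shares with AT1G80850.

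None of the group III factors passed. WRKY53, an activator of leaf ageing, was at 5.89, 6.33 and 6.43 FPKM after Pst hrcC and at 3.03, 4.48 and 4.83 FPKM in controls. Its groups did not overlap, and its treated libraries lay closer together (SD 0.288 FPKM) than its controls (SD 0.957 FPKM). The log2 difference was 0.52 ± 0.17 (SE, limma adjusted p = 0.55), and it was between 0.35 and 0.62 when any 1 library was left out. The 3′ end of WRKY53 overlaps AT4G23800 by 341 bp on the opposite strand, so here too reads may not have been told apart. AT4G23800 was at 9.66, 10.7 and 8.84 FPKM after Pst hrcC and at 11.3, 11.97 and 12.3 FPKM in controls, in the other direction from WRKY53. The part of the overlap in the WRKY53 values was not tested.

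WRKY70, which raises salicylic acid responses and holds back jasmonate responses, was at 3.74, 4.63 and 5.54 FPKM after Pst hrcC and at 4.02, 2.82 and 3.63 FPKM in controls. The groups overlapped through replicate 1, the only pair in which the treated library was lower (log2 differences of -0.08, 0.56 and 0.50 in pairs 1, 2 and 3). The log2 difference was 0.32 ± 0.18 (SE, limma adjusted p = 0.916), and without the replicate 1 pair it was 0.53 (limma adjusted p = 0.442). Leaving out Pst hrcC replicate 3 or control replicate 2 gave 0.21 each. WRKY54, its closest relative and partner, had the lowest mean of the 10 in both groups. It was at 1.18, 1.12 and 1.05 FPKM after Pst hrcC and at 1.63, 0.684 and 0.922 FPKM in controls. The log2 difference was 0.05 ± 0.19 (SE, limma adjusted p = 1.00). The controls spanned the whole range of the treated libraries. The ratio of WRKY70 to WRKY54 was 3.16, 4.13 and 5.30 after Pst hrcC and 2.47, 4.13 and 3.94 in controls, and its difference on the log2 scale was 0.27 (two-sided exact permutation p = 0.3, adjusted 0.45), or 0.14 without Pst hrcC replicate 3.

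**Figure D4:**
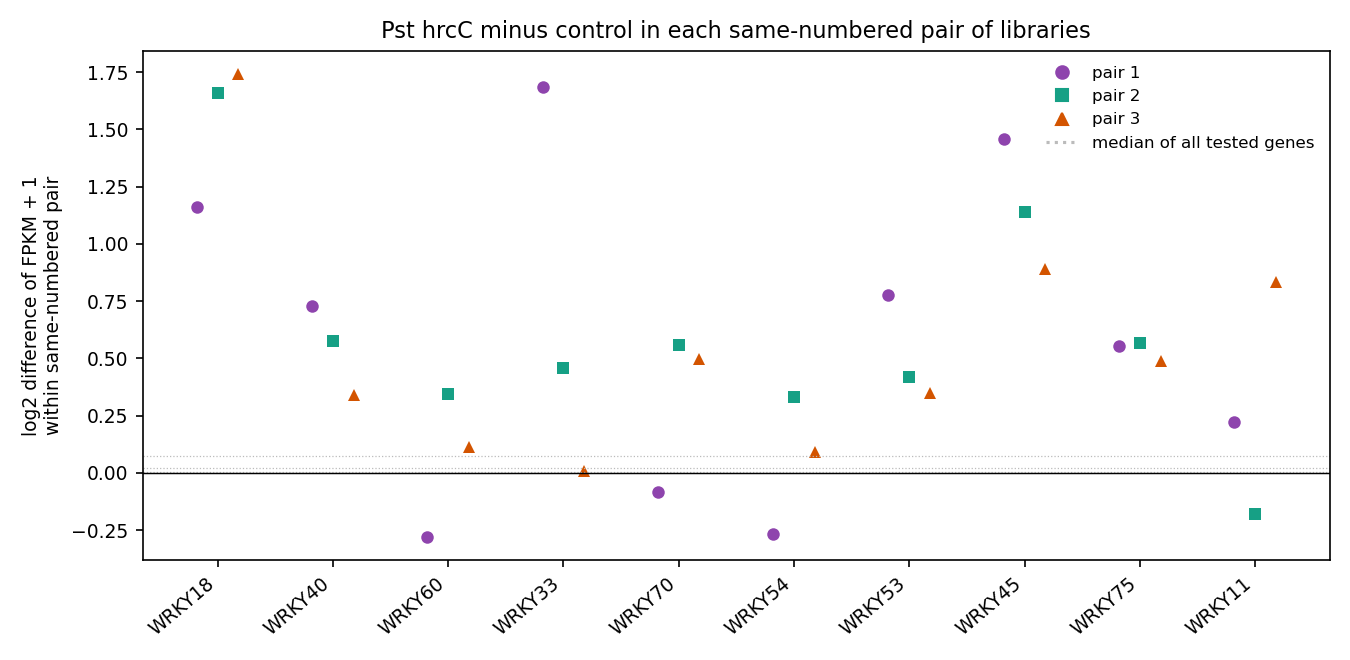
Log2 difference of FPKM + 1, Pst hrcC minus control, within each same-numbered pair of libraries for each WRKY gene; symbols give the pair and dotted lines the medians of all tested genes. WRKY18, WRKY45 and WRKY75 are at 0.49 or higher in every pair, WRKY33 is high in pair 1 alone, and WRKY60, WRKY70 and WRKY54 are below 0 in pair 1.

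After WRKY18, the group IIc genes had the smallest p-values of the members, and neither passed. WRKY45, an activator of the phosphate transporter gene PHT1;1 when phosphate is short, was at 10.2, 10.5 and 14.9 FPKM after Pst hrcC and at 3.08, 4.21 and 7.56 FPKM in controls. The groups did not overlap, and both were highest in replicate 3. The log2 difference was 1.16 ± 0.30 (SE, limma adjusted p = 0.336), and 1.16 ± 0.14 when the replicate number was a block (SE, limma adjusted p = 0.0695). WRKY75, which acts in phosphate uptake, root growth and leaf ageing, showed the same order of libraries: 2.83, 3.02 and 3.58 FPKM after Pst hrcC and 1.61, 1.71 and 2.26 FPKM in controls. Its 3 pairs gave close values (0.55, 0.57 and 0.49), and the log2 difference was 0.54 ± 0.15 (SE, limma adjusted p = 0.409; under the block, 0.168).

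WRKY75 stood at 0.277, 0.287 and 0.241 times WRKY45 after Pst hrcC and at 0.523, 0.407 and 0.299 times in controls, lower in every treated library. On the log2 scale of FPKM + 1 the difference of this ratio was -0.63 (two-sided exact permutation p = 0.1, the smallest possible, 0.3 adjusted over the 6 ratios). WRKY45 and WRKY75 were the 2 members whose levels ran most alike, with Pearson r = 0.99 of log2(FPKM + 1) over 6 libraries, a description that includes the treatment and shared depth. Each was among the 100 tested genes closest to the other. Root markers were higher after Pst hrcC in pair 3, with a median log2 difference of 1.09 over 17 genes against 0.20 and 0.01 in pairs 1 and 2. WRKY45 had its smallest pair difference in that pair (0.89, against 1.46 and 1.14 in pairs 1 and 2); the part of root tissue in its level was not tested. PHT1;1 (AT5G43350), named as the known target with its values in view, was at 22.8, 7.85 and 20.2 FPKM after Pst hrcC and at 24.1, 20.3 and 10.8 FPKM in controls (limma adjusted p = 1.00), so its groups overlapped.

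WRKY11, which with WRKY17 limits resistance to Pseudomonas syringae, had the highest mean of the 10 in both groups. It was at 15.5, 12.3 and 21.3 FPKM after Pst hrcC and at 13.1, 14.1 and 11.5 FPKM in controls. The groups overlapped, with treated replicate 2 below 2 of the controls, and the log2 difference was 0.29 ± 0.21 (SE, limma adjusted p = 1.00). Without Pst hrcC replicate 3 it was 0.10. WRKY17 (AT2G24570) was at 8.43, 6.46 and 8.75 FPKM after Pst hrcC and at 7.73, 6.70 and 5.56 FPKM in controls. WRKY11 was 1.84, 1.90 and 2.43 times as high as WRKY17 after Pst hrcC and 1.70, 2.098 and 2.07 times in controls, ratios that overlapped (two-sided exact permutation p = 0.7).

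FPKM is per length, so levels can be ordered across genes. After Pst hrcC the order of means was WRKY11 (16.4 FPKM), WRKY45 (11.9), WRKY33 (10.3), WRKY18 (7.43), WRKY53 (6.22), WRKY70 (4.64), WRKY75 (3.14), WRKY60 (2.2), WRKY40 (2.06) and WRKY54 (1.12 FPKM). The ranges of WRKY11 and WRKY45, of WRKY45 and WRKY33, of WRKY33 and WRKY18, and of WRKY60 and WRKY40 overlapped, so these neighbours do not differ beyond their spread. In controls the order was WRKY11 (12.9 FPKM), WRKY33 (5.54), WRKY45 (4.95), WRKY53 (4.11), WRKY70 (3.49), WRKY60 (2.14), WRKY18 (1.95), WRKY75 (1.86), WRKY40 (1.11) and WRKY54 (1.08 FPKM). There, neighbours were apart only at WRKY11 against WRKY33 and at WRKY75 against WRKY40. WRKY18 stood at rank 4 after Pst hrcC and at rank 7 in controls. The summed level of the 10 genes was 65.4 ± 8.44 FPKM after Pst hrcC and 39.1 ± 3.49 FPKM in controls (SD, n = 3 each).

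The rest of the WRKY family gave no call. Of 62 other WRKY genes, 40 were tested, none passed in limma (0.284% of all tested genes were called higher) and 1 (WRKY69) was higher at an unadjusted p under 0.05 (5.18% of all tested genes). Of the 40, 29 (72.5%, against 57.5% of all tested genes) had a log2 difference above 0. Their median was 0.11, and in 1 gene (WRKY19) the treated libraries lay wholly above the controls (7.66% of all tested genes). The 3 with the smallest p were WRKY69, WRKY7 and WRKY41. WRKY69 (AT3G58710) was at 7.61, 12.5 and 14.4 FPKM after Pst hrcC and at 8.44, 6.20 and 5.93 FPKM in controls (limma adjusted p = 0.685). WRKY7 (AT4G24240), a relative of WRKY11, was at 9.12, 9.24 and 11.0 FPKM after Pst hrcC and at 10.097, 13.6 and 13.6 FPKM in controls (limma adjusted p = 0.914). WRKY41 (AT4G11070) was at 1.80, 2.30 and 1.73 FPKM after Pst hrcC and at 2.11, 2.71 and 2.61 FPKM in controls (limma adjusted p = 0.966). WRKY7 and WRKY41 had lower means after Pst hrcC.

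The 22 other WRKY genes below the minimum mean were not tested. WRKY30 (AT5G24110) is named for its values. It was at 1.10, 0.512 and 0.572 FPKM after Pst hrcC and at 0.0929, 0.152 and 0.0652 FPKM in controls. The groups did not overlap, with treated above control, as in 7.66% of the tested genes. WRKY38 (AT5G22570) and WRKY62 (AT5G01900), group III genes that respond to salicylic acid, were also chosen with their values in view and were low. WRKY38 was at 0.217, 1.05 and 2.47 FPKM after Pst hrcC and at 0.2503, 0.0255 and 0.351 FPKM in controls. WRKY62 was at 0.0991, 0.400 and 0.190 FPKM after Pst hrcC and at 0, 0 and 0.0537 FPKM in controls. These genes do not stand for all 22. WRKY46 (AT2G46400), also chosen with its values in view, had a lower mean after Pst hrcC. It was at 0.561, 0.310 and 0 FPKM after Pst hrcC and at 0.858, 0.285 and 0.603 FPKM in controls.

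**Figure D5:**
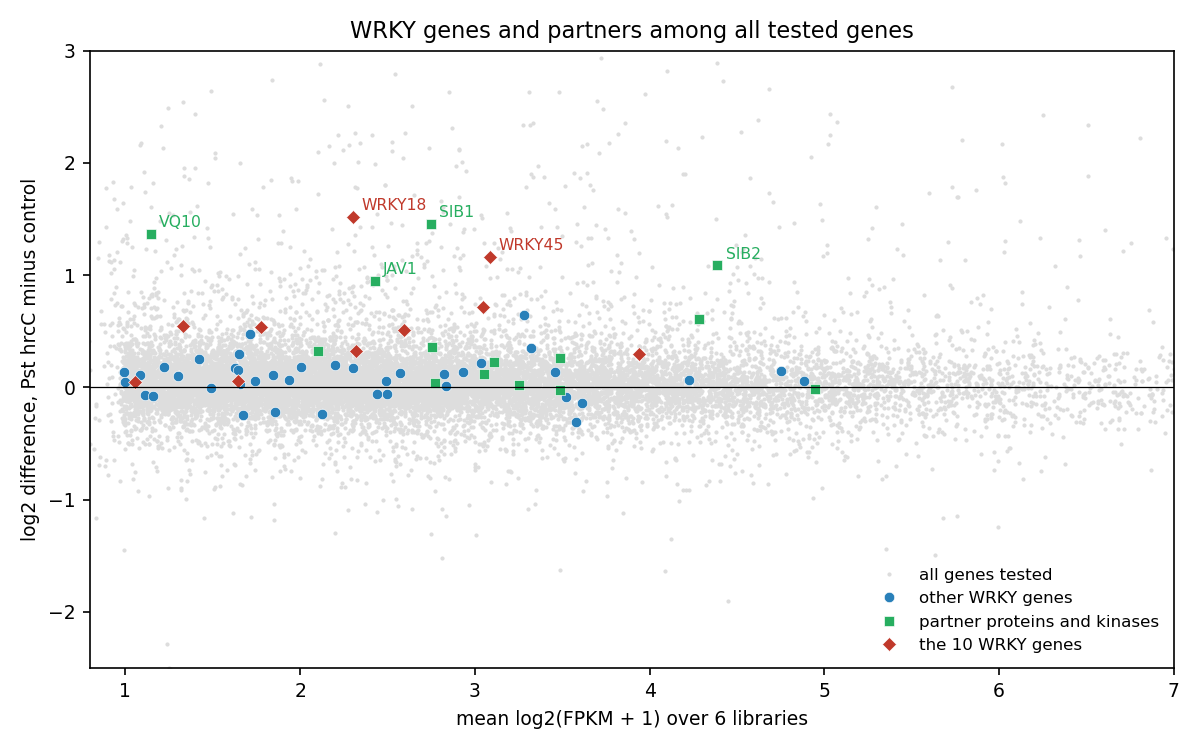
Log2 difference (Pst hrcC minus control) against mean log2(FPKM + 1) over 6 libraries for all 16923 tested genes in grey (456 lie beyond the axes), with the 10 WRKY genes as red diamonds, 40 other WRKY genes as blue circles and 14 partner genes as green squares; names are given above 0.9. WRKY18, SIB1, VQ10, WRKY45, SIB2 and JAV1 stand out upward, and the other WRKY genes lie between -0.31 and 0.64.

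Among genes for proteins that act with WRKY factors, 1 VQ protein gene rose. VQ proteins are small and bind the WRKY domain, and MAP kinases phosphorylate some proteins of both kinds. Of 15 genes 14 were tested, 1 rose, none fell and 13 did not pass, where 0.284% of all tested genes were called higher and 0.00591% lower. Treated libraries lay wholly above controls in 6 genes (7.66% of all tested genes), and 6 were higher before adjustment (p under 0.05; 5.18% of all tested genes). The median log2 difference was 0.29. SIB1 (AT3G56710), a VQ protein that binds WRKY33 and stimulates it, rose to 9.57, 10.8 and 10.076 FPKM after Pst hrcC, against 2.19, 3.88 and 3.29 FPKM in controls. Its log2 difference of 1.46 ± 0.18 passed (SE, limma adjusted p = 0.0490), as it did under the replicate block (limma adjusted p = 0.0473). With a pseudocount of 0.1 it did not pass (limma adjusted p = 0.0513). SIB1 passed without Pst hrcC replicate 1 (limma adjusted p = 0.0483) and without the replicate 1 pair (limma adjusted p = 0.0373). Without Pst hrcC replicate 2 or 3 the limma adjusted p was 0.224 and 0.194. Without control replicate 1, 2 or 3 it was 0.0663, 0.201 and 0.232, so each of these 5 omissions ended the call. The log2 difference of SIB1 stayed between 1.29 and 1.59 in these fits, while calls over all tested genes fell from 49 to between 2 and 19.

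JAV1 (AT3G22160), a VQ repressor of jasmonate defence that is itself removed when jasmonate is present, was at 6.98, 5.85 and 6.65 FPKM after Pst hrcC and at 3.12, 2.68 and 2.83 FPKM in controls (limma adjusted p = 0.0530). VQ10 (AT1G78410) was at 2.88, 2.55 and 2.25 FPKM after Pst hrcC and at 0, 0.598 and 0.628 FPKM in controls (limma adjusted p = 0.10). SIB2 (AT2G41180), the close relative of SIB1 and named with its values in view, was at 35.3, 26.8 and 27.1 FPKM after Pst hrcC and at 15.7, 15.3 and 9.92 FPKM in controls (limma adjusted p = 0.187). In SIB1, JAV1, VQ10 and SIB2 every treated library lay above every control. MPK3 (AT3G45640), also named with its values in view, was at 23.1, 22.7 and 23.2 FPKM after Pst hrcC and at 11.8, 14.1 and 19.3 FPKM in controls (limma adjusted p = 0.509), while the groups of MPK6, MPK4 and MKS1 overlapped.

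Of 20 genes known as WRKY targets or as outputs of the pathways these factors steer, 11 were tested, 1 rose, none fell and 10 did not pass, where 0.284% of all tested genes were called higher and 0.00591% lower. The median log2 difference was 0.19. JAZ8 (AT1G30135), a jasmonate repressor gene bound by WRKY40, rose to 2.30, 2.95 and 4.64 FPKM after Pst hrcC, against 0.248, 0 and 0.0867 FPKM in controls (limma adjusted p = 0.0461). Its call was lost under the replicate block (limma adjusted p = 0.0611), and when Pst hrcC replicate 2 or 3 was left out (limma adjusted p = 0.204 and 0.119). Leaving out any control replicate ended it as well, with limma adjusted p-values of 0.0903, 0.234 and 0.230 without replicates 1, 2 and 3. The call of JAZ8 was kept without Pst hrcC replicate 1 (limma adjusted p = 0.0173). It was also kept without the replicate 1 pair (limma adjusted p = 0.0294), where 1.02% of all tested genes were called higher. The camalexin genes bound by WRKY33 had groups that did not overlap. CYP71A13 (AT2G30770) was at 2.46, 2.33 and 3.91 FPKM after Pst hrcC and at 0.573, 0.157 and 0.425 FPKM in controls (limma adjusted p = 0.0618). PAD3 (AT3G26830) was at 5.52, 4.404 and 4.08 FPKM after Pst hrcC and at 3.48, 2.53 and 1.69 FPKM in controls (limma adjusted p = 0.498). In pairs 2 and 3, where WRKY33 differed by 0.46 and 0.01 on the log2 scale, both camalexin genes were higher in the treated library; how far they follow WRKY33 was not tested. EDS1 (AT3G48090), named with its values in view and a target of WRKY18 and WRKY40 in salicylic acid defence, was at 11.2, 6.74 and 7.91 FPKM after Pst hrcC and at 10.05, 7.69 and 7.53 FPKM in controls. The remaining 9 (ACS2, ERF109, ICS1, PBS3, SARD1, FRK1, ABI4, ABI5 and SAG12) were below the minimum mean, and ABI4 and SAG12 were listed at 0 in every library.

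The tested genes outside the 10 whose levels ran most like WRKY18 over the 6 libraries were CYP71A13, AOC1, AT2G04080, AT3G23570 and AOC2 (Pearson r of log2(FPKM + 1) from 0.992 to 0.996, which includes the difference between the groups). CYP71A13 led with 0.996. AOC1 (AT3G25760) and AOC2 (AT3G25770) encode allene oxide cyclases of jasmonate synthesis, close paralogs whose reads may be divided uncertainly. AOC1 and AT3G23570 rose (limma adjusted p = 0.0490 and 0.0498), and of these AOC1 also passed under the replicate block (limma adjusted p = 0.0487), while AT3G23570 did not (limma adjusted p = 0.0600). AOC1 was at 153, 124 and 239 FPKM after Pst hrcC and at 15.7, 2.46 and 5.13 FPKM in controls. AOC1 and the other genes picked here had their highest treated value in replicate 3 and their highest control value in replicate 1, like WRKY18. This follows from picking them for likeness. No other member was among the 100 genes closest to WRKY18. Across the members, after WRKY45 and WRKY75, WRKY53 ran most like WRKY45 (r = 0.94), WRKY40 (0.94) and WRKY75 (0.91). WRKY18 and WRKY75 followed (r = 0.90), and WRKY53 was among the 100 genes closest to WRKY40. WRKY60 and WRKY54 came next (r = 0.85), both highest in control replicate 1. WRKY40 and WRKY60 gave r = -0.42, with WRKY40 at its lowest in that same library. All these values describe 6 libraries, include the difference between the groups and were not tested.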

How the data were processed

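The libraries were mRNA libraries of seedling RNA read from both ends, per the labels' protocols. FastQC, TopHat2 2.1.1 and Cufflinks 2.2.1 are the tools, and TAIR10 the build, in the submitters' processing notes; no annotation, strand or setting is recorded there. The authors deposited FPKM values for 27371 genes, and these were not rescaled. Sample titles gave the groups and replicate numbers. FPKM keeps no counts: in the lowest genes only 45.8% to 54.8% of ratios between libraries fell on whole steps (within 0.02 on the log2 scale), so reads could not be recovered and a count test was not run.

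The 16923 genes averaging 1 FPKM or more were compared two-sided by limma (version 3.58.1, R 4.3.3), after log2(FPKM + 1), with treatment alone in the model and a prior variance that follows expression. The test was first tried on simulated data of independent normal values. These held no shared replicate effect and no difference in depth, so the trial does not cover those limits. Ratios between WRKY genes were compared by exact permutation (6 ratios). The labels do not tell whether replicates were separate cultures; p-values thus cover the spread among these samples, which may be technical. As a check of pairing, libraries with the same number were correlated after subtracting group means, giving 0.43, 0.17 and 0.13 (replicates 1, 2 and 3). All exceed 0.1, so by rule, from the data alone, the numbers count as pairs. Pst hrcC replicate 2 with control replicate 3 gave 0.21, above the values of pairs 2 and 3. Pst hrcC replicate 3 with control replicate 2 gave 0.07. The check thus cannot tell pairs 2 and 3 from swapped numbers. The main calls do not use the pairs, and the block is an alternative printed where it changes a call. The calls of WRKY18, JAZ8 and AT3G23570 were lost under the block, so they rest on a fit that leaves the pairs out.

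The members, lists and rules were chosen with earlier results of these data known. The text names the 10 members, each list's called genes and 3 smallest p-values, and the 5 genes most like WRKY18, plus WRKY17 for its ratio. SIB2, MPK3, WRKY30, WRKY38, WRKY46, WRKY62, EDS1, PHT1;1, AHL13 and CCA1 fall outside that rule. W boxes were searched in RefSeq TAIR10.1, used for sequences and gene overlaps only. Alternatives were other pseudocounts and filters, a replicate block, median-of-ratios scaling, no variance trend and leaving out libraries.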

Additional observations from a re-analysis of the deposited data

How the results depend on the processing

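Under 14 alternatives, WRKY18 kept its direction wherever it was tested; its mean is below 5 FPKM, so it was not tested at that minimum. It still passed under median-of-ratios scaling (1.47, limma adjusted p = 0.0485), without Pst hrcC replicate 1 and without the replicate 1 pair. It did not pass with a pseudocount of 0.1 (1.90, limma adjusted p = 0.0513) or 5 (0.84, 0.0597), with no filter (1.52, 0.116), with the replicate block (1.52, 0.0524) or without a variance trend (1.52, 0.0520), and leaving out 1 library gave 1.37 to 1.66. Accordingly 0 of the 10 members passed in those settings and at a minimum of 5 FPKM, and 0 to 1 when 1 library was left out. Among all genes 17 passed with a pseudocount of 5, 2 with no filter, 2 to 180 without 1 library and 182 without the replicate 1 pair, against 49. SIB1, the called partner, did not pass with a pseudocount of 0.1 (limma adjusted p = 0.0513), where JAV1 did (0.0473). Of the partner genes 0 passed with a pseudocount of 5, with no filter and without a variance trend, and 0 to 1 without 1 library. Of the target genes 0 passed with either pseudocount, with no filter, at a minimum of 5 FPKM and with the block, and 0 to 1 without 1 library. JAZ8, the called target, has a mean below 5 FPKM, so it was not tested at that minimum. The block also ended the call of AT3G23570 (limma adjusted p = 0.0600) and kept those of SIB1 and AOC1. In all 14 alternatives no other WRKY gene passed. Differences near 0 turned when 1 library was left out: WRKY60 ran from -0.17 (without control replicate 2; -0.0025 without Pst hrcC replicate 3) to 0.25, WRKY54 from -0.088 (without control replicate 2) to 0.23, the ratio WRKY53 over WRKY70 from -0.058 (without control replicate 1; -0.14 without the replicate 1 pair) to 0.36, and WRKY11 over WRKY17 from -0.044 (without Pst hrcC replicate 3; -0.0044 without control replicate 1) to 0.15. The cause was not tested. The number of fragments behind a value is not known, and 3 libraries a group limit the precision.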
